A study of Rattus norvegicus with 4 samples.

Results

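The genes described here are mainly small GTPases of the Rab, Arf and Arl families, coat subunits of transport vesicles, and SNARE proteins. SNAREs fuse vesicles with their target membranes. Members were chosen by symbol: Rab genes, Arf1 to Arf6, numbered Arl genes, subunits of the COPI coat (Cop), Sec22, Sec23 and Sec24, Sar1, and numbered Vamp, Stx and Snap genes. They made up 135 probe sets of the 15866 that are not controls, and 100 genes of 10411. The rule reads symbols alone, but it was written with earlier results of these data known. It also took in Arl2bp, Arl6ip1, Arl6ip4, Arl6ip5 and Arl6ip6, which are named for binding Arl proteins and are not GTPases themselves. Each gene was then placed by its known role in an ER-Golgi group of 34 genes, an endosomal group of 28 or an exocytic group of 18, and 20 genes stayed outside these groups.

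Vesicles carry proteins and lipids between the compartments of a cell. COPII coats, assembled by the GTPase Sar1, bud vesicles from the endoplasmic reticulum (ER), and COPI coats, recruited by Arf proteins, work at the Golgi and return material to the ER. Rab proteins mark the compartments and recruit tethers and motors, and matching SNAREs on vesicle and target draw the membranes together. In the airway epithelium these steps deliver receptors and ion channels to the cell surface, feed endosomes and lysosomes, and release mucins and other secreted proteins.

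The cells were RTEC11, a rat tracheal epithelial line from transgenic rats whose transgene is a large T antigen of simian virus 40 in a temperature-sensitive form, which drives cell division while it is active. Both groups carry the antigen. It is active at 33 °C (the permissive group) and inactive at 39 °C (the nonpermissive group), and cells were kept at either temperature for 3 days. Because temperature and antigen activity changed together, their parts in any difference cannot be told apart. Expression was measured on 4 Affymetrix arrays, 2 per temperature. Whether replicates came from separate cultures is not in the labels, so the p-values cover array-to-array spread that may be technical, and fewer cells of a type cannot be told apart from less RNA per cell.

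Levels below are log2(intensity + 16) after quantile normalization, a change is the level at 39 °C minus that at 33 °C, and a fold change is that difference turned to a ratio, which understates changes of dim genes. A gene was tested if its mean level reached 6.60, the limit for dim genes, equal to an intensity of 81.1. It is called higher or lower where limma gave an adjusted p under 0.05 over all 7016 genes tested. Arrays of the same temperature correlated at 0.978 and 0.981, and arrays of different temperatures at 0.951 to 0.953. Of 11 epithelial markers on the array, 9 lay above the dim limit, with Krt5 and Cldn7 below it. The counts were 1 of 8 for fibroblasts, 2 of 6 for smooth muscle, 0 of 4 for endothelium, 2 of 7 for leukocytes and 1 of 6 for neuroendocrine cells and neurons. Of the 9 epithelial markers tested, 5 were called higher at 39 °C (Cldn4, Dsp, Epcam, Krt19 and Krt8) and 2 lower (Krt7 and Krt18). Of the other cell types' markers, Col3a1 of the fibroblast list and Des of the smooth muscle list were called higher at 39 °C. Their means at 33 °C, 6.16 and 6.47, lay below the dim limit. They were tested only through their levels at 39 °C (means 7.78 and 7.30), so these calls depend on that filter. In the smooth muscle list, Tagln was at 8.14 and 8.38 at 33 °C and 4.51 and 4.34 at 39 °C, and Myh11 at 5.01 and 5.36 against 7.09 and 6.96. Both had mean levels under the dim limit and were not tested. The summed fibroblast intensity was 239 and 254 on the arrays at 33 °C and 381 and 333 on those at 39 °C, against 74100 to 88200 for the epithelial list. Summed smooth muscle marker intensity was 618 and 802 at 33 °C and 604 and 505 at 39 °C, and the endothelial sum was 51.2 and 46.3 against 141 and 47.0. The leukocyte sum was 904 to 1110 over the 4 arrays, with Ptprc below the dim limit, and the neuroendocrine and neuronal sum 248 to 304. The part of other cell types in the results was not tested.

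Of the 88 members tested, 20 were higher and 10 lower at 39 °C. This was 34.1% called, against 49.1% of all genes tested. The higher genes made up 22.7% of the members (background 23.1%), and the lower genes 11.4% (background 26.1%). The arrays of both temperatures did not overlap in 59 members, or 67%, against 75.1% of all genes. The median change was 0.08, with a range from -1.02 to 1.56, and the median size of change regardless of direction was 0.21 against 0.37 for all genes. Only 6 members changed at least 2-fold among those tested: Rab15, Stx7, Rab7a, Rab40c and Snap91 upward and Arl6ip4 downward. The split between directions depended on scaling. Values kept on the deposited scale gave 21 higher and 10 lower. Median centring of each array gave 12 higher and 21 lower, and scaling to spike-in controls gave 8 higher and 37 lower. In these 3 settings the median of all genes was 0.02, -0.13 and -0.36 (-0.04 after quantile normalization). Without nonpermissive replicate 2 the counts were 13 higher and 6 lower.

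**Figure D1:**
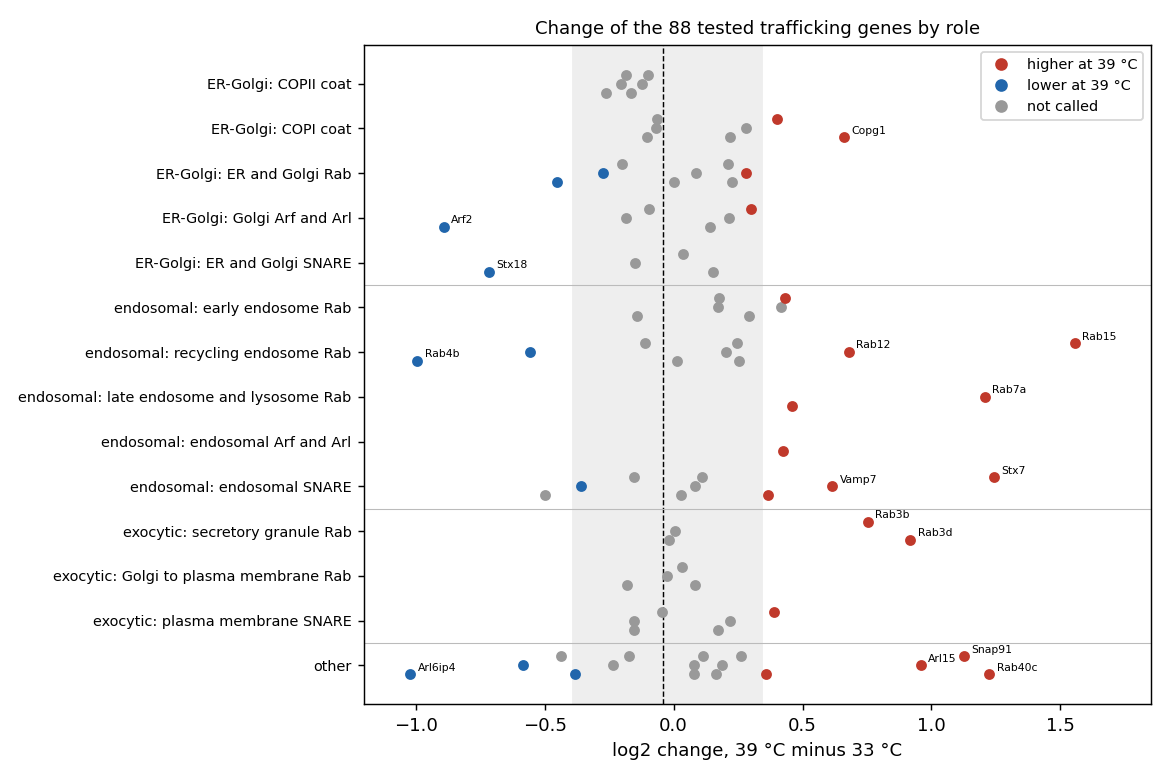
Log2 change (39 °C minus 33 °C) of each of the 88 tested genes, in rows by role. Each point is a gene, red where called higher, blue where called lower and grey where not called. The dashed line marks the median of all 7016 genes tested (-0.04) and the grey band spans their lower to upper quartile, -0.39 to 0.34. Of the 4 largest rises, Rab15, Stx7 and Rab7a lie in the endosomal rows and Rab40c in the row of other genes. None of the COPII genes among the members was called.

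The 3 groups differed in their counts. In the endosomal group 9 of 27 tested genes were higher and 3 lower (44.4% called, median change 0.20). The ER-Golgi group had 4 higher and 4 lower of 31 (25.8% called, median -0.07), and the exocytic group 3 higher and none lower of 14 (21.4% called, median 0.02). The background of all genes was 49.1% called with a median of -0.04. Differences between the groups were not tested. The medians stood in the same order under all 4 scalings, with the endosomal one highest and the ER-Golgi one lowest. The endosomal median fell below 0 with spike-in scaling (-0.14), and the exocytic one with median centring (-0.04) and spike-in scaling (-0.27). Relative to the median of all genes, the endosomal median was higher by 0.25 after quantile normalization and by 0.22 on the deposited scale. The scalings by median and spike-in shift each array by 1 amount and leave that distance as on the deposited scale.

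**Figure D2:**
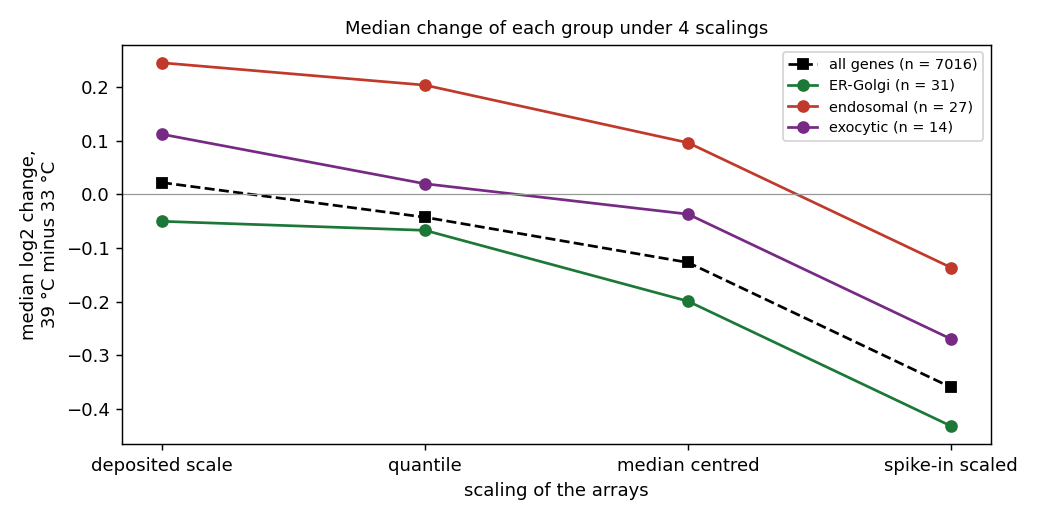
Median log2 change (39 °C minus 33 °C) of all tested genes and of the ER-Golgi, endosomal and exocytic groups under 4 scalings of the arrays. Points are medians over genes, lines join the same set, and n is the number of genes tested after quantile normalization. The endosomal median lies above that of all genes under each scaling, by 0.22 to 0.25, while its sign turns to negative with spike-in scaling.

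Within the endosomal group, both tested Rabs of late endosomes and lysosomes were higher at 39 °C (background 23.1%). Rab7a, which drives the maturation of late endosomes and their fusion with lysosomes, had levels of 10.35 and 10.19 at 33 °C and 11.41 and 11.54 at 39 °C. Both arrays at 39 °C lay more than 1 log2 unit above both at 33 °C. This was a 2.31-fold rise, a change of 1.21 ± 0.10 (SE), with an adjusted p of 3.97e-06 (limma). A second Rab7a probe set also rose, by 0.51 ± 0.10 (SE), from 10.05 and 10.02 to 10.57 and 10.52. Rab9a, which returns mannose 6-phosphate receptors from late endosomes to the Golgi, went from 10.45 and 10.41 to a mean of 10.89 ± 0.15 (SD, n = 2) with no overlap, 1.38-fold higher. Its call was lost without nonpermissive replicate 2 and with spike-in scaling. The other member of this class, Rab38, which serves lysosome-related organelles, lay below the dim limit on every array, at 4.72 and 5.74 at 33 °C and 6.50 and 6.13 at 39 °C, and was not tested.

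Of 9 endosomal SNAREs tested, 3 were higher (33.3%, background 23.1%) and 1 lower (11.1%, background 26.1%). The largest change was in Stx7, a syntaxin of late endosomes and lysosomes, at 9.36 and 9.52 at 33 °C and 10.67 and 10.70 at 39 °C. The arrays of each temperature agreed closely, and the rise was 2.37-fold, 1.24 ± 0.11 (SE), with an adjusted p of 4.76e-06 (limma). Vamp7, a SNARE of lysosomal fusion, went from 10.26 and 10.28 to 10.82 and 10.94, a change of 0.62 ± 0.10 (SE, adjusted p 0.000365, limma). That call was lost with spike-in scaling (0.23). Stx6, a SNARE of the trans-Golgi network and early endosomes, was 1.29-fold higher, and its second probe set had a change of 0.50. Stx8, a syntaxin that pairs with Stx7 in late endosomal fusion, was lower, at 9.02 and 9.03 against 8.66 and 8.67, with a change of -0.36 ± 0.13 (SE). Both calls were weak. The Stx6 call was lost under 6 of 15 alternatives, among them median centring, and the Stx8 call under 6, among them each of the 4 fits without an array. The remaining SNAREs of this group did not pass. Vamp8, a SNARE of late endosomes and of regulated secretion in epithelia, had a change of -0.15 ± 0.09 (SE), with levels of 11.20 and 11.23 against 11.02 and 11.11. Vamp3, Stx12 and Stx16 had changes between 0.03 and 0.11, and Snap29 was at -0.50 with arrays at 39 °C of 8.88 and 7.93.

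Of 9 tested Rabs of recycling endosomes, 2 were higher and 2 lower (22.2% each, against 23.1% and 26.1% of all genes). Rab15, a Rab of early and recycling endosomes, had the largest change of all tested members. Its levels were 8.39 and 7.85 at 33 °C and 9.50 and 9.85 at 39 °C, a 2.94-fold rise of 1.56 ± 0.19 (SE) with an adjusted p of 4.32e-05 (limma). The second Rab15 probe set, which is dimmer, was at 7.39 and 7.50 against 7.72 and 7.71, a change of 0.27 that did not pass. Rab12, which directs transferrin receptor from recycling endosomes to lysosomes, went from 9.83 and 9.56 to 10.33 and 10.42, 1.60-fold higher, and its second probe set had a change of 0.74. In the other direction, both genes of Rab4, which returns cargo rapidly from early endosomes to the surface, were lower. Rab4b was at 9.02 and 8.96 at 33 °C and at 8.09 and 7.91 at 39 °C, 1.99-fold lower, with a change of -0.99 ± 0.14 (SE, adjusted p 0.000183, limma). Rab4a went from 8.27 and 8.47 to 7.86 and 7.76, with a change of -0.56 ± 0.16 (SE), a call lost without permissive replicate 2 or nonpermissive replicate 2. Neither pair of arrays overlapped with the other for these Rab4 genes.

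Rab11a and Rab11b, which act on the slower recycling route, did not pass by their brightest probe sets. Rab11a was at 11.69 and 11.59 against 11.81 and 11.88, a change of 0.20 ± 0.09 (SE), with a 95% interval from 0.01 to 0.40, and Rab11b had a change of 0.26. The epithelial Rab25, a relative of Rab11, had a change of -0.11 and Rab35 one of 0.01. Rab14, which acts between the Golgi, early endosomes and apical membranes, had 4 probe sets. The brightest was at 11.41 and 11.38 against 11.51 and 11.77, a change of 0.24 that did not pass, while the other three rose by 0.80, 0.68 and 0.83. The brightest of these 3 went from 10.78 and 10.85 to 11.66 and 11.58, with arrays of both temperatures apart.

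Among 6 tested Rabs of early endosomes only Rab5b passed (16.7%, against 49.1% of all genes). It was at 9.82 and 9.64 against 10.08 and 10.24, 1.35-fold higher, and its second probe set had a change of 0.56. Rab5 proteins control fusion of incoming endocytic vesicles. Rab5a had a change of 0.29 ± 0.14 (SE) and Rab5c one of -0.14 ± 0.13 (SE), neither called. Arf6, the Arf of the plasma membrane and of endocytic recycling, was higher, from 11.52 and 11.40 to 11.86 and 11.91, a change of 0.43 ± 0.09 (SE, adjusted p 0.00215, limma). The calls of Rab5b and Arf6 were lost with median centring and with spike-in scaling, and Arf6 then had a change of -0.05. Rab5b was also lost without nonpermissive replicate 2. Without that array the endosomal group had 6 higher and 1 lower, and without permissive replicate 2 it had 9 higher and 1 lower.

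**Figure D3:**
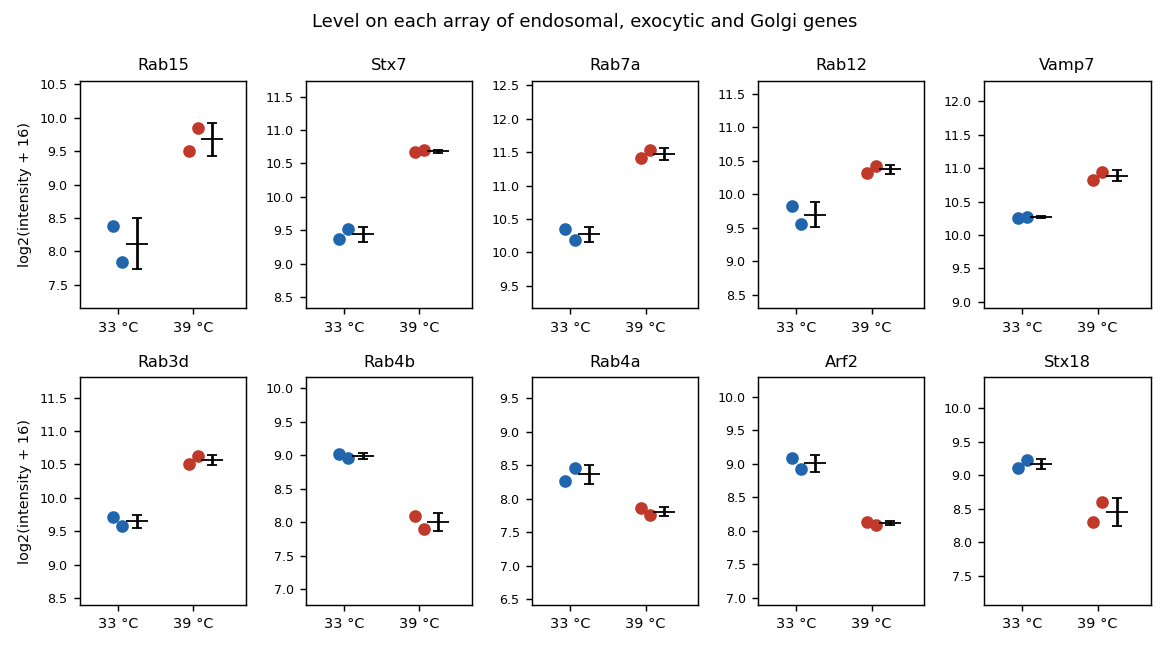
Level on each array, log2(intensity + 16), of 10 members at 33 °C (blue) and 39 °C (red). Points are arrays, and the black bar and whiskers give the mean ± SD of 2 arrays. Every panel spans the same range of log2 values. The 6 genes from Rab15 to Rab3d are higher at 39 °C and the 4 from Rab4b to Stx18 lower, with no overlap between temperatures.

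Promoter sequences were set beside these changes because several endosomal members moved the same way. RefSeq promoters of assembly GRCr8, 250 bases before and 50 after a start site, were found for 83 of the 100 members. There were 33469 promoters for 27457 genes, and the first one listed for each gene was used. Its start site can lie inside the gene. The windows used for Rab7a and Rab15 lie within the spans of these genes. The E-box CACGTG, which is the core of the site of lysosomal gene regulators, stood on either strand in 8 of the 83 promoters (9.64%), against 10.1% of promoters of all tested genes and 6.65% of all promoters. The longer form GTCACGTG was in 6 (7.23%, against 4.29% and 2.02%), and every such match also counts as an E-box. By role the E-box was in 5 of 24 endosomal promoters, 1 of 28 ER-Golgi promoters and 0 of 16 exocytic ones. Of the 8 promoters found for endosomal genes called higher, 1 held it, that of Stx6. The GC box GGGCGG was in 63 of 83 (75.9%, against 67.3% and 34.9%) and in 7 of those 8. The cyclic AMP response element TGACGTCA was in 3 promoters (3.61%, against 3.37% and 1.91%), and the ER stress response element was in none (against 0.235% and 0.0765%). Such matches describe letters only, and differences in these shares were not tested. The promoters of the 3 largest endosomal rises, of Stx6 and of Rab4b, the largest endosomal fall, are given 5′ to 3′ on the gene's strand, with E-boxes and GC boxes of either strand in capitals. They lie at chr4:122064136-122064435 (minus strand) for Rab7a, chr1:23056416-23056715 (minus) for Stx7, chr6:101257034-101257333 (minus) for Rab15, chr13:69882397-69882696 (plus) for Stx6 and chr1:91600288-91600587 (minus) for Rab4b.
Rab7a: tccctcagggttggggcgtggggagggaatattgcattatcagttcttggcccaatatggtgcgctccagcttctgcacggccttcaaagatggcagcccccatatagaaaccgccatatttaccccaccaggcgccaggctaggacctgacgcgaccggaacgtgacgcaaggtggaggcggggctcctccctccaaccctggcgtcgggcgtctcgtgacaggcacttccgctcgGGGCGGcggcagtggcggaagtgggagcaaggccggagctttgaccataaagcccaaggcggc
Stx7: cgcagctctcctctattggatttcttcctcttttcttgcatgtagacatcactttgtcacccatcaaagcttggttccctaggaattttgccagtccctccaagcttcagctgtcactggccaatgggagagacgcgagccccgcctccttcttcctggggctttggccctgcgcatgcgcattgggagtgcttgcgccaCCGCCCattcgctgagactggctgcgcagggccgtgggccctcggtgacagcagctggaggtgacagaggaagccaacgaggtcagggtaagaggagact
Rab15: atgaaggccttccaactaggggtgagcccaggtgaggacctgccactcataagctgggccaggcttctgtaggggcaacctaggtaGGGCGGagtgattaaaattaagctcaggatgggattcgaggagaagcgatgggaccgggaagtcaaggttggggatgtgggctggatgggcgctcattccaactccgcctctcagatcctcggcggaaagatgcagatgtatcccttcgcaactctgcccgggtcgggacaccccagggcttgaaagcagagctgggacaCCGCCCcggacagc
Stx6: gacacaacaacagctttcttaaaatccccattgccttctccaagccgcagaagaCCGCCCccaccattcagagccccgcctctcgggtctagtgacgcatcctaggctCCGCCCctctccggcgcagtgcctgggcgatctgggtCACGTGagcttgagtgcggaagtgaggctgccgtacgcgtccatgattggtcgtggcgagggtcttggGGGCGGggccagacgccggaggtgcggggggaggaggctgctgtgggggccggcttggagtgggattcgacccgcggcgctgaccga
Rab4b: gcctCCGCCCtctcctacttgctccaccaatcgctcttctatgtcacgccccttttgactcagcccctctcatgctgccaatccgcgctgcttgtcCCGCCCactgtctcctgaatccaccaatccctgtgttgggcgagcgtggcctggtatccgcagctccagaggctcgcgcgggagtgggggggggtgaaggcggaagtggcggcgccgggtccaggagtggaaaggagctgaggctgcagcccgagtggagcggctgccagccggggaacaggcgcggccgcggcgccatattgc
In these windows the E-box is found in the Stx6 promoter, starting 105 bases before the start site. Each of the 5 promoters holds at least 1 GC box, that of the falling Rab4b included.

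Of the vesicle coats in the ER-Golgi group, the COPII members gave no call and the COPI members 2, a difference that was not tested. COPII-related genes outside the symbol rule did give calls. The coat subunits Sec13 (-0.48) and Sec31a (-0.49), with Preb (-0.56) and Sec16a (-0.34), were lower, and Tfg (0.33) was higher. None of the 6 COPII members tested passed at an adjusted p under 0.05 in limma's fit, while 49.1% of all genes tested did. Sar1a, the GTPase that starts COPII assembly, was at 11.07 and 11.46 against 11.13 and 10.86, a change of -0.26 ± 0.13 (SE), and its second probe set had a change of -0.15. Its close relative Sar1b was at 10.15 and 10.04 against 9.95 and 9.91 (-0.17 ± 0.11, SE). Sec23b, of the inner coat shell, went from 10.27 and 10.54 to 10.25 and 10.19, with a change of -0.19 ± 0.12 (SE). The cargo-binding subunits Sec24b, Sec24c and Sec24d had changes of -0.20, -0.10 and -0.12. All 6 changes lay below 0, and their 95% intervals reached from -0.56 at the lowest to 0.18 at the highest and each included 0. With median centring 3 of the 6 were lower, and with spike-in scaling all 6.

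Among 7 COPI subunits tested, 2 were higher (28.6%, background 23.1%) and none lower (background 26.1%). Copg1, the gamma-1 subunit, was at 10.88 and 10.49 at 33 °C and 11.35 and 11.35 at 39 °C, a 1.58-fold rise of 0.66 ± 0.12 (SE, adjusted p 0.000974, limma). Its second, dimmer probe set was at 8.93 and 8.95 against 9.06 and 8.92, a change of 0.05. Copa, the alpha subunit of the outer coat, went from 10.72 and 10.83 to 11.14 and 11.21, 1.32-fold higher (adjusted p 0.00475, limma). Copb1 and Copg2 had changes of 0.28 and 0.22 without passing, and their arrays did not overlap between temperatures. Copb2, Cope and Copz1 had changes of -0.07, -0.06 and -0.10. Subunits of the same complex thus had values on both sides of 0, and whether they differ was not tested. With median centring the Copa call was lost and COPI had 1 subunit higher and 2 lower. With spike-in scaling both calls were lost and 3 subunits were lower. Copz2 lay below the dim limit. Arcn1, the delta subunit of COPI, is outside the symbol rule and was not called (-0.25 ± 0.14, SE).

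**Figure D4:**
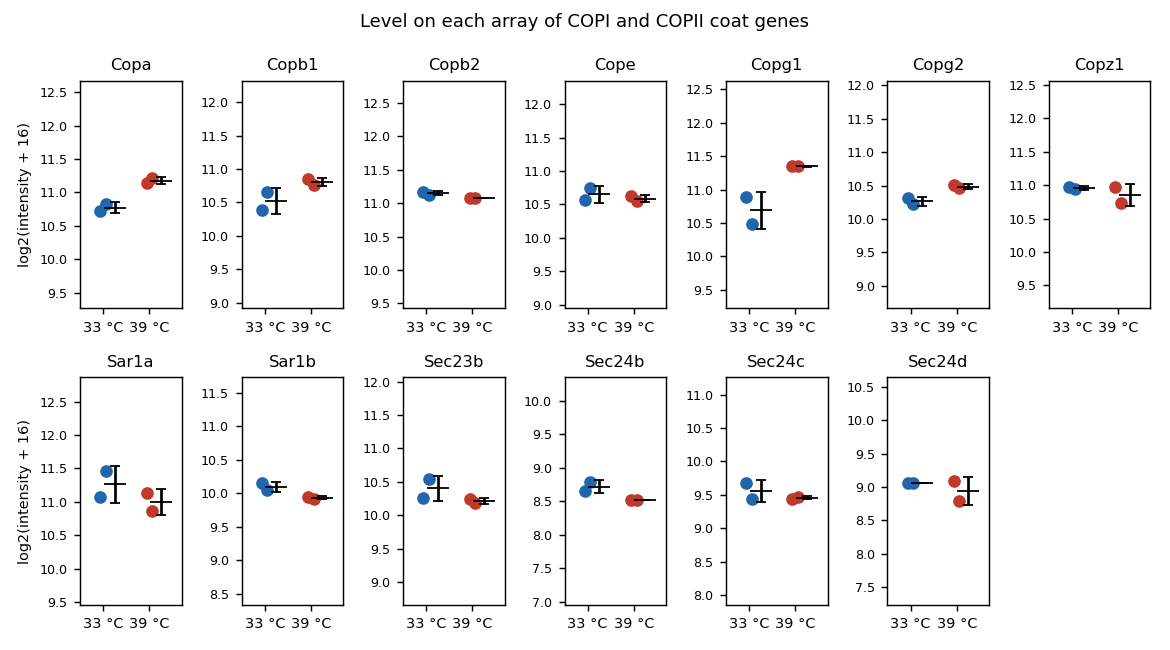
Level on each array, log2(intensity + 16), of the 7 tested COPI genes and the 6 tested COPII genes at 33 °C (blue) and 39 °C (red). Points are arrays, and the black bar and whiskers give the mean ± SD of 2 arrays. Every panel spans the same range of log2 values. Copa and Copg1 are higher at 39 °C, and the arrays of the COPII genes lie close together or overlap.

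Of 6 tested Arf and Arl genes of the Golgi, 1 was higher and 1 lower (16.7% each, against 23.1% and 26.1% of all genes). Arf2, which like the other Golgi Arfs recruits COPI and adaptor coats, was at 9.09 and 8.92 at 33 °C and 8.13 and 8.09 at 39 °C. It was 1.86-fold lower, a change of -0.89 ± 0.14 (SE) with an adjusted p of 0.000333 (limma), and its second probe set also fell (-0.57). Arf3 was at 10.72 and 10.88 against 11.15 and 11.05, 1.23-fold higher, but its second probe set had a change of -0.23 and the call was lost under 7 of 15 alternatives. Arf1, the main Golgi Arf, was at 13.61 and 13.57 against 13.44 and 13.38, a change of -0.18 ± 0.08 (SE, adjusted p 0.0642, limma), and its second probe set was called lower (-0.32). Arf4, Arf5 and Arl1 had changes of -0.10, 0.21 and 0.14 and were not called.

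Of 8 Rabs of the ER and Golgi tested, 1 was higher (12.5%, background 23.1%) and 2 lower (25%, background 26.1%). Rab1a and Rab1b both act in transport from the ER to the Golgi. Rab1b was at 9.87 and 9.93 against 9.37 and 9.53, 1.37-fold lower (adjusted p 0.00657, limma), and lost its call without nonpermissive replicate 1. Rab1a was at 12.79 and 12.63 against 12.92 and 12.91, a change of 0.21 ± 0.08 (SE, adjusted p 0.0594, limma), and with spike-in scaling it was called in the other direction (-0.28). Rab2a, which acts between the ER and the Golgi, was 1.21-fold lower, and Rab18, of the ER and lipid droplets, 1.22-fold higher. The Rab2a call was lost under 4 of 15 alternatives and the Rab18 call under 7. Rab2b, Rab6a, Rab33b and Rab34 had changes between -0.20 and 0.23, and a second Rab6a probe set was called lower (-0.34).

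A SNARE of the ER gave the clearest fall next to Arf2 in this group. Stx18, which receives COPI vesicles at the ER, was at 9.11 and 9.22 at 33 °C and 8.30 and 8.60 at 39 °C, 1.64-fold lower, with a change of -0.72 ± 0.14 (SE, adjusted p 0.00175, limma). Arf2 and Stx18 kept their calls under all 15 alternatives. Sec22b, a SNARE of vesicles between the ER and the Golgi, had overlapping arrays (8.62 and 9.02 against 8.62 and 8.71), as did its relative Sec22a and the Golgi syntaxin Stx5. Stx5 had a change of 0.15 ± 0.13 (SE). Stx17 and Rab6b lay below the dim limit. Without either nonpermissive array 2 ER-Golgi genes were called higher, in place of 4.

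In the exocytic group 3 of the 14 tested genes were higher and none lower, and the arrays did not overlap in 5 (35.7%, against 75.1% of all genes). Rab3d, a Rab of secretory granules in exocrine and airway cells, had the largest change. Its levels were 9.71 and 9.58 at 33 °C and 10.51 and 10.62 at 39 °C, a 1.89-fold rise of 0.92 ± 0.11 (SE) with an adjusted p of 3.89e-05 (limma), which held under all 15 alternatives. Rab3b, a related Rab of regulated secretion, was dimmer, at 7.18 and 6.76 against 7.61 and 7.84, 1.68-fold higher. Its call was lost under 4 alternatives, among them the fits without permissive replicate 2 and without nonpermissive replicate 2. Stx3, a syntaxin of the apical membrane, was at 9.21 and 8.97 against 9.66 and 9.30, with an adjusted p of 0.0482 (limma), and lost its call under 8 of 15 alternatives. Its second, dimmer probe set had a change of 0.14 that did not pass. When every probe set was tested on its own, the brightest did not pass either (adjusted p 0.0515, limma). Without permissive replicate 2 the exocytic group had 1 gene called higher.

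The other Rabs of secretion gave no call. Rab27b was at 8.32 and 8.29 against 8.29 and 8.33, a change of 0.01 with a 95% interval from -0.32 to 0.33, and Rab26 had a change of -0.02. Rab27a, which docks granules at the plasma membrane, lay below the dim limit at 5.21 and 5.18 at 33 °C and 5.87 and 6.13 at 39 °C, and the mean levels of Rab3a and Rab3c were also below it. The 4 Rabs that carry cargo from the Golgi to the plasma membrane, Rab8a, Rab8b, Rab10 and Rab13, had changes between -0.18 and 0.08. Among SNAREs of the plasma membrane, Stx4, a syntaxin of the basolateral membrane, was at 10.68 and 10.44 against 10.48 and 10.34 (-0.15 ± 0.11, SE). Snap23, the widely expressed partner of these syntaxins, was at 9.11 and 8.90 against 9.39 and 8.96 by its brighter probe set, a change of 0.17 ± 0.16 (SE). Its second probe set went from 7.80 and 7.81 to 8.62 and 8.79 and was called higher (0.90). The neuronal forms Vamp1, Vamp2 and Stx1a lay close to the dim limit without a call, and Snap25 below it.

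Outside these groups 4 of 16 tested genes were higher (25%, background 23.1%) and 3 lower (18.8%, background 26.1%). Rab40c, a Rab-like subunit of ubiquitin ligases, was at 7.88 and 7.05 against 8.66 and 8.72, 2.34-fold higher (adjusted p 0.0012, limma). Snap91, a clathrin assembly protein known from synapses that shares only its symbol with the SNAREs, was at 6.40 and 7.20 against 8.19 and 7.65, 2.18-fold higher. That call was lost without nonpermissive replicate 1, and its second probe set lies below the dim limit with a change of -0.24. Arl15 was 1.94-fold higher, from 7.89 and 7.82 to 8.79 and 8.84, and Rab29, a Rab of the trans-Golgi network, 1.28-fold. Arl6ip4, whose name comes from its binding to Arl6 and which is not an Arl GTPase, was 2.03-fold lower. It went from 10.38 and 10.10 to 9.25 and 9.18 (adjusted p 5.01e-05, limma). Vamp5 was lower, with a change of -0.58 ± 0.11 (SE), and Arl3, which delivers lipid-anchored proteins to cilia, was 1.30-fold lower. The Vamp5 call was lost with the mean of its probe sets and the Arl3 call without nonpermissive replicate 2. Rab29 lost its call under 6 alternatives.

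Further probe sets changed what could be said of single genes. Of 31 members with more than 1 probe set, 25 had more than 1 above the dim limit, and 0 of these had probe sets called in opposite directions. When every probe set above the limit was tested on its own, an alternative added after the data were seen, 42 of 115 member probe sets were called, 29 higher and 13 lower, against 47.2% of all probe sets tested. Rab14, Rab11a (0.64), Rab22a (1.09) and Snap23 were not called by the brightest probe set and were called higher by a further one. Arf1 and Rab6a were called lower in the same way. When probe sets of a gene were averaged, the endosomal group had 12 higher and 3 lower.

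**Figure D5:**
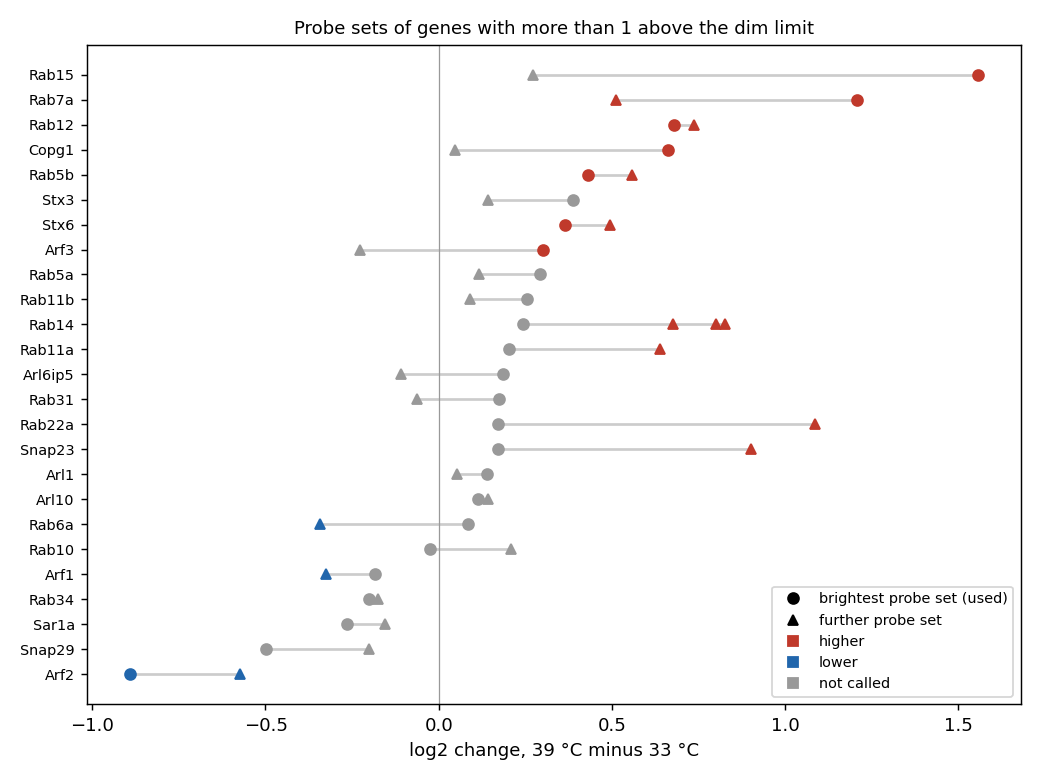
Log2 change (39 °C minus 33 °C) of each probe set of the 25 members with more than 1 probe set above the dim limit. Circles are the brightest probe set, used for the gene, triangles are further probe sets, lines join those of a gene, and colours give the call when every probe set was tested on its own. Rab7a, Rab12, Rab5b and Stx6 are called higher by both probe sets and Arf2 lower by both. Rab14, Rab11a, Rab22a and Snap23 are called only by further ones, of which that of Rab22a lies near the dim limit.

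Other genes of vesicle traffic, in 8 lists of 247 genes, gave 54 higher and 35 lower of 187 tested (47.6% called, background 49.1%). Of 33 genes of retromer, HOPS and ESCRT, which sort and fuse endosomal membranes, 13 were higher (39.4%, background 23.1%) and 1 lower (3.03%, background 26.1%). A difference from the background was not tested. Chmp3, an ESCRT-III subunit, rose from 9.11 and 9.06 to 10.33 and 10.21, and the sorting nexin Snx2 from 10.26 and 10.14 to 10.94 and 11.27, while the retromer subunit Vps26a was at -0.37. Of 34 genes of the clathrin coat and its adaptors 9 were higher and 6 lower (44.1% called). The adaptor Dab2 rose 4.47-fold, from 6.86 and 7.79 to 9.45 and 9.51, and Gga2, a clathrin adaptor of the trans-Golgi network, 3.35-fold. The adaptor subunit Ap1s1 was 2.41-fold lower and the dynamin Dnm1 2.38-fold.

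On the side of the ER and Golgi, a list of 26 further genes, mostly of COPII and cargo receptors, had 7 higher and 8 lower. This was 57.7% called against 49.1% of all genes. The list also holds the COPI subunit Arcn1, which was not called. Tmed3 (0.89) and Cnih4 (0.54) led the rises, and Tmed1 (-0.91) and the cargo receptor Lman1 (-0.80) the falls. The 8 lower genes also include Sec13, Sec31a, Preb and Sec16a of COPII, given above. Of 29 SNAREs, their regulators and tethers, mostly of this route, 7 were higher and 8 lower (51.7% called). The largest rises were in Bet1 (0.94) and Cog4 (0.85), and the largest falls in Vps45 (-1.16) and the Golgi SNARE Gosr2 (-0.97). Vps45 acts between endosomes and the trans-Golgi network. Of 24 genes of membrane fusion and exocytosis 5 were higher, led by Napg (0.93) and the Rab27 effector Sytl2 (0.63), and 4 lower, led by the exocyst subunit Exoc6 (-1.36) and the SNARE-recycling ATPase Nsf (-0.71), which made 37.5% called.

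Among regulators of the GTPases, the shares called lay on both sides of the 49.1% of all genes. Of 19 activators, inactivators and effectors of Rabs 5 were higher and 5 lower (52.6% called), with the Rab5 activator Rin2 at 1.43 and Rab11fip3, a Rab11 effector, at 0.90, against Tbc1d1 at -0.83 and Rabep2 at -0.59. In a list of 15 genes that act on or with Arfs, mostly activators and inactivators, 6 were higher and 3 lower (60% called). Among the 6, Arfrp1 (0.33), is itself an Arf-like GTPase. The Arf6 activator Iqsec1 rose from 8.28 and 8.40 to 9.62 and 9.54, and Arfgap3, which inactivates Arf1 at the Golgi, from 7.82 and 7.88 to 9.05 and 9.04, while Cyth3 was at -0.53 and Arfgef2 at -0.50. Of 7 genes of protein prenylation and Rab escort, 2 were higher and none lower (28.6% called). Rabggtb (0.35) belongs to the enzyme that attaches lipid anchors to Rabs, and Fntb (0.53) to farnesyltransferase, which modifies other proteins.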

How the data were processed

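Total RNA from RTEC11 cells was labelled and hybridised to 1 Affymetrix rat array per sample, per the labels' protocols. The deposited intensities are linear values per probe set and had been scaled by the authors, since each array has a mean of 500.1 or 500.2 once 2% is trimmed at each end. The summarising software was not given in the sources used here. Members, role groups and lists were chosen with earlier results of these data known.

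Intensities were taken as log2(intensity + 16), 57 control probe sets were left out, and the 4 arrays were quantile normalized. Array medians had differed by 0.17. Gene names came from GEO's annotation of the platform and were checked by Entrez identifier against RefSeq (GRCr8), where 100 of 100 members matched and 0 symbols changed. Each gene was represented by its brightest probe set, where possible without the suffix _x_at. Genes under the 40th percentile of mean level were left out as dim. The difference between temperatures was fitted in limma 3.58.1 under R 4.3.3, with eBayes and a trend by intensity on 2 residual degrees of freedom. Its two-sided p-values were Benjamini-Hochberg adjusted over 7016 genes. Named members were the 5 largest called rises and falls without overlap in each role group and 2 of each outside them, all coat genes and 12 fixed genes. The related lists gave 2 of each. Other called members and some called genes of the lists are named for completeness, outside this rule. The same holds for genes that stand in the text without a call. In simulated data with 7012 genes tested, a log2 change of 0.5 was recovered in 58.2% of 67 genes, of 1 in 95.5% of 67 and of 2 in 95.5% of 66. Alternatives were other scalings (24 poly-A spike-in probe sets for 1 of them), smaller and larger pseudocounts, other dim limits, the mean of probe sets, no trend, a block for replicate number, and fits without each array. Figures were drawn with matplotlib 3.10.9. The number of arrays limits the precision.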

Additional observations from a re-analysis of the deposited data

How the results depend on the processing

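Of the 30 calls among the members, 11 held under every alternative in which the gene was tested: Rab15, Stx7, Rab7a, Rab12, Rab3d, Arl15, Rab40c, Rab4b, Arf2, Stx18 and Arl6ip4. Under the 3 other scalings 17 calls held, and 16 held in all 4 fits without an array. Median centring gave 12 members higher and 21 lower, of which ER-Golgi 1 higher and 12 lower (median -0.20), endosomal 5 lower (median 0.096) and exocytic 1 lower. Spike-in scaling gave 8 higher and 37 lower, of which ER-Golgi 0 and 19 (median -0.43), endosomal 4 and 9 (median -0.14) and exocytic 1 and 3 (median -0.27). These scalings move every gene of an array by 1 amount, so a count can change with no change in the order of genes. Under spike-in scaling Arf3 (-0.12), Arf6 (-0.050), Copa (-0.021), Rab18 (-0.071), Rab11a (-0.28) and Rab1a (-0.28) changed direction, of which Rab11a and Rab1a were called, as did Copb1 (-0.10), Copg2 (-0.16), Snap23 (-0.13) and Stx5 (-0.19), which were called under neither scaling. On the deposited scale the endosomal median was 0.24 and the exocytic one 0.11. Without an intensity trend 2 ER-Golgi genes were higher. Without a dim filter the ER-Golgi median was -0.032 and the exocytic group had 1 higher and a median of 0.13, and 1 was higher with the limit at the 60th percentile. The mean of probe sets gave an ER-Golgi median of -0.096. The cause of these moves was not tested. Without an array in turn, members higher ranged from 13 to 18 and lower from 6 to 9, ER-Golgi from 2 to 4 and 3 to 4 (median -0.084 to -0.0049), endosomal from 6 to 9 and 1 to 3 (median 0.17 to 0.25), and exocytic from 1 to 3 and 0 to 0 (median -0.0071 to 0.12). Arrays of the same replicate number did not deviate together (correlation -0.0064 over 7016 genes). Whether the numbers pair the samples is not in the labels, and 1 correlation from 2 arrays per group cannot decide it. The fit with the replicate number as a block gave 23 members higher and 12 lower.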

Other observations

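The second Stx1a probe set, whose mean level of all 4 arrays lies below the dim limit, was at 7.23 and 6.96 at 33 °C and at 4.81 and 4.71 at 39 °C, while the probe set used for the gene was at 6.85 and 6.67 against 7.03 and 6.92. The first was not tested, and the difference between the probe sets was not tested. Of the 12 members below the dim limit, Rab38, Snap25, Rab27a, Rab3a, Rab3c, Copz2 and Arl6ip6 had both arrays at 39 °C above both at 33 °C without being tested. Rab39a had both below, at 4.66 and 4.69 against 4.63 and 4.47. The share of all genes below the limit without overlap was not counted, so these members cannot be set against a background.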
